A study of Mus musculus with 2 samples.

Results

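The 6 conventional actins of the mouse were followed in RNA of embryonic fibroblasts that had been sorted for how far the mitochondrial permeability transition pore (mPTP) opens. They are Acta1, Acta2, Actb, Actc1, Actg1 and Actg2, found by symbol, and they are 6 of the 23084 gene symbols in the deposited table. The pore lets solutes cross the inner membrane of mitochondria. Primary mouse embryonic fibroblasts of the ICR strain were loaded with calcein and quenched with cobalt chloride, so that pore opening dims a cell. Bright cells gave the Low mPTP library and dim cells gave the High mPTP library. No genotype, passage or treatment beyond the dye assay is given, and each group is 1 library. No difference here has a replicate check, no p-value was computed, and all values describe these 2 libraries.

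Levels are FPKM, which are reads divided by gene length and by library depth. The steps of the values gave the whole reads behind all 6 genes, with 15060435 reads as the denominator of the Low and 16375735 as that of the High mPTP library. The range in brackets behind a ratio is its 95% interval for counting error, and differences between cell preparations are not in it. Collagen genes of fibroblasts were among the most abundant transcripts, with Col1a1 at 3059 FPKM in the Low mPTP and 3204 FPKM in the High mPTP library. Macrophage transcripts were present too, and 9 of their markers summed to 827 FPKM in the Low mPTP and 394 FPKM in the High mPTP library.

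Actin is the protein of the thin filaments of muscle and of the microfilaments of all other cells. Monomers join end to end into polar filaments, on which myosins pull, and the same monomers are returned by severing and depolymerising factors. Mammals have 6 genes for nearly identical proteins. Actb and Actg1 encode the cytoplasmic beta and gamma actins that every cell type uses. Acta2 and Actg2 encode the vascular and enteric smooth muscle actins, and Acta2 is also the classical mark of a fibroblast that has become a contractile myofibroblast. Acta1 and Actc1 encode the skeletal and cardiac actins of the sarcomere. Free actin monomers hold back the cofactors of serum response factor, a transcription factor that binds the CArG box and drives several actin genes, so that filament growth and actin transcription are linked.

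The isoforms differ most at the amino end of the protein, so the first 45 coding bases of each main mRNA are shown. They were read from GENCODE M21 transcripts, and capitals mark the bases that differ from Acta2 in an alignment of the whole coding sequences. Actg2, Actb and Actg1 are shorter by a codon or more at this end, so their letters are not in register with those of Acta2.
Acta2: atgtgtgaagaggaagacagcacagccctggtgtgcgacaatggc
Actg2: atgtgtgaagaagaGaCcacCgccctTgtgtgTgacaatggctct
Acta1: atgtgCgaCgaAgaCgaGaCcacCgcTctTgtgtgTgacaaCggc
Actc1: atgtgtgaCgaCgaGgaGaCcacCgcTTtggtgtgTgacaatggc
Actb: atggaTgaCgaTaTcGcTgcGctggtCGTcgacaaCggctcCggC
Actg1: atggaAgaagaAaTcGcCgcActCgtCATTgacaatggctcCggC
The muscle isoforms open with a cysteine codon after the start codon, which the cytoplasmic pair lacks. In this stretch Actg2 had 5 bases in capitals, while Actb and Actg1 each had 13. Over the aligned coding sequence Actb and Actg1 were the most alike of the 15 pairs, with 88.7% identical bases. Acta2 and Actg2, both smooth muscle actins, had 84.4%, while Acta2 was 85.4% identical to skeletal Acta1.

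This likeness bears on the measurement, since reads from a stretch that genes share cannot be placed. Windows of 50 nt of each main mRNA were therefore looked up, on both strands, in the transcripts of all other annotated genes. For Actg2 and Actc1 no window of 50 nt was found elsewhere, and for Acta2 0.352% of windows were. Acta1 had 2.22% and Actb 14.2%, the latter mostly in Lrrc58, whose annotated transcripts hold an Actb-like stretch. Actg1 stood apart with 56.7% of windows, and 51.1% at windows of 100 nt, mostly in pseudogenes. These are exact matches, and coding windows of 50 nt with up to 2 mismatches were more common between some isoforms. They made up 14.6% of windows between Actb and Actg1, 8.66% between Acta1 and Actb, 4.7% between Actc1 and Actg2, 4.06% between Acta1 and Actc1 and 2.58% between Acta2 and Actg1. Between Acta2 and Actg2, between Acta2 and Actc1 and between Actc1 and Actg1 there were none. How many reads this concerns was not tested. Acta1, with few reads, shares such windows with the far more abundant Actb, and 28 windows match exactly. Actc1, also with few reads, shares windows with up to 2 mismatches with the far more abundant Actg2 and Actb. Copies in unannotated sequence were not searched.

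**Figure D1:**
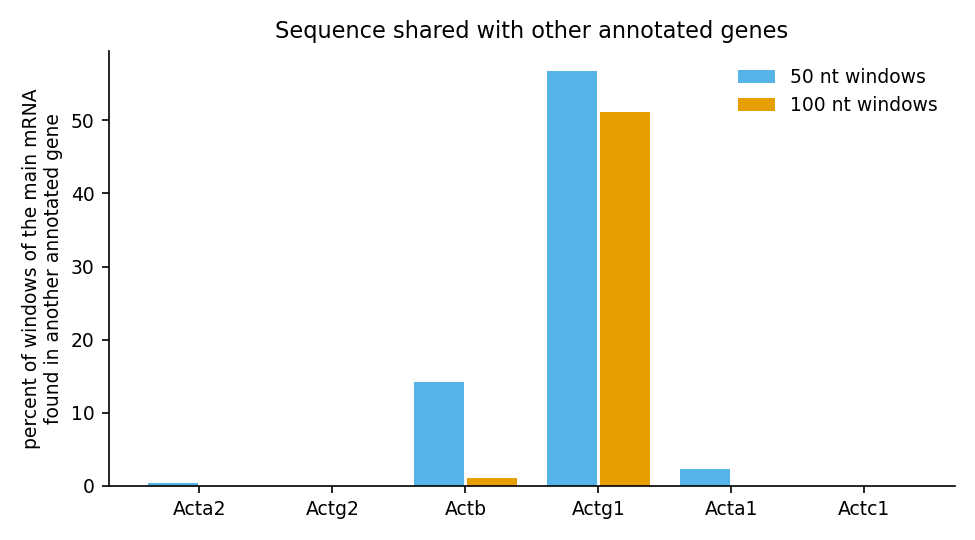
Percent of 50 nt windows (blue) and 100 nt windows (orange) of the main mRNA of each actin that also occur in a transcript of another annotated gene. Actg1 reaches 56.7% and 51.1%, Actb 14.2% and 1.1%, and Actg2 and Actc1 have none.

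Few reads were counted on the pseudogene copies that have values. Of 14 annotated pseudogenes that share a 50 nt window with an actin, 3 are listed in the table, and they sum to 11 reads in the Low mPTP and 16 in the High mPTP library. Gm12715, the copy nearest to Actg1, had 9 and 14 reads, beside 34724 and 47222 reads for Actg1 itself. How the authors' counting treated reads with several places is not given in the sources used here, and this bears on the level of Actg1. The few reads on copies therefore do not show how many reads of Actg1 were dropped or misplaced.

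Promoters of 4 of the 6 genes could be shown, and were searched for CArG boxes because these are the sites of serum response factor. The 250 bases before the RefSeq transcription start on GRCm38.p6 are printed 5′ to 3′ on the minus strand, on which all 4 genes lie. Capitals mark strict CArG boxes, CArG boxes with 1 base of the A/T core replaced by G/C, and the TATA box TATAAA. Both strands were searched, and no 2 marked motifs overlap. Acta2 is at chr19:34255374-34255623, Acta1 at chr8:123894776-123895025, Actc1 at chr2:114052876-114053125 and Actg1 at chr11:120348496-120348745. Actb and Actg2 are not shown. The RefSeq starts differ from the gene spans given below, in which a gene of the minus strand starts at its higher coordinate. The Actc1 window lies within its gene, which starts at 114053548. The Acta2 window overlaps the gene of M21, which starts at 34255590, and the Actg1 window overlaps its gene in part. Which start these cells use was not tested, so the positions hold for the RefSeq start only.
Acta2: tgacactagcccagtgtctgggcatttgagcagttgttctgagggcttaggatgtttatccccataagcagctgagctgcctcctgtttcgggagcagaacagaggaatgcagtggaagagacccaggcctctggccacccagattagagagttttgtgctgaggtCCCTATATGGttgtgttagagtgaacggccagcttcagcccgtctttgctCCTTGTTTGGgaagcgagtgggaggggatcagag
Acta1: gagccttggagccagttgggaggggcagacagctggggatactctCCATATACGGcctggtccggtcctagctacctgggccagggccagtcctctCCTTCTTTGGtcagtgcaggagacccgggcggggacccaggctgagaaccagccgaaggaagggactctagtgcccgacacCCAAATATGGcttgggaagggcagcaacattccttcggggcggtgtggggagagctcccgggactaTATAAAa
Actc1: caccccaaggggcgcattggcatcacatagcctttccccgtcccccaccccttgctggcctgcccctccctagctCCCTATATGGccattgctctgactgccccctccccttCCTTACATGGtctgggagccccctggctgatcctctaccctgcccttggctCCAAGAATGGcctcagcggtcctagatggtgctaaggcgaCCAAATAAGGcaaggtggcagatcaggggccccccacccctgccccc
Actg1: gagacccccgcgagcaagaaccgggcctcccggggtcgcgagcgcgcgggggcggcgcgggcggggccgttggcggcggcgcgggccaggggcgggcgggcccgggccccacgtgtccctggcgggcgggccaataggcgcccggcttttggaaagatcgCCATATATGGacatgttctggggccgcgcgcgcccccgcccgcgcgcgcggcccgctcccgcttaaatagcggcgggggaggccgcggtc
A strict CArG box lies at -73 to -64 in Acta1 (CCAAATATGG), at -47 to -38 in Actc1 (CCAAATAAGG) and at -90 to -81 in Actg1 (CCATATATGG), counted from the RefSeq start. In Acta2 no strict box was found, but 2 boxes with 1 such base in the core were, CCCTATATGG at -84 to -75 and CCTTGTTTGG at -34 to -25. The first of these has the same 10 letters as a box of Actc1 at -175 to -166. Of 32851 RefSeq promoters 1.47% hold a strict box in the same 250 bases and 8.59% hold either form, while TATAAA on either strand is in 12.4%. Thus 3 of 4 actin promoters held the strict box and all 4 held one of the 2 forms. A match is a description of letters, not of binding.

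Both smooth muscle actins had more transcript in the High mPTP library, both cytoplasmic actins had slightly more, and cardiac Actc1 had less. Of the 6 genes 2 were 1.5-fold or more higher on the log2(FPKM + 1) scale, against 1.54% of 11898 measured genes (a mean of at least 1 FPKM). Actc1 alone was lower by that size, against 4.38% of measured genes, so that 3 of 6 passed it in either direction against 5.92%. Actb, Actg1 and Acta1 lay between. The 6 genes summed to 2675 FPKM in the Low mPTP and 3872 FPKM in the High mPTP library, a ratio of 1.45 (1.44 to 1.46). In a bulk sample, more cells of a type and more RNA per cell cannot be told apart.

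**Figure D2:**
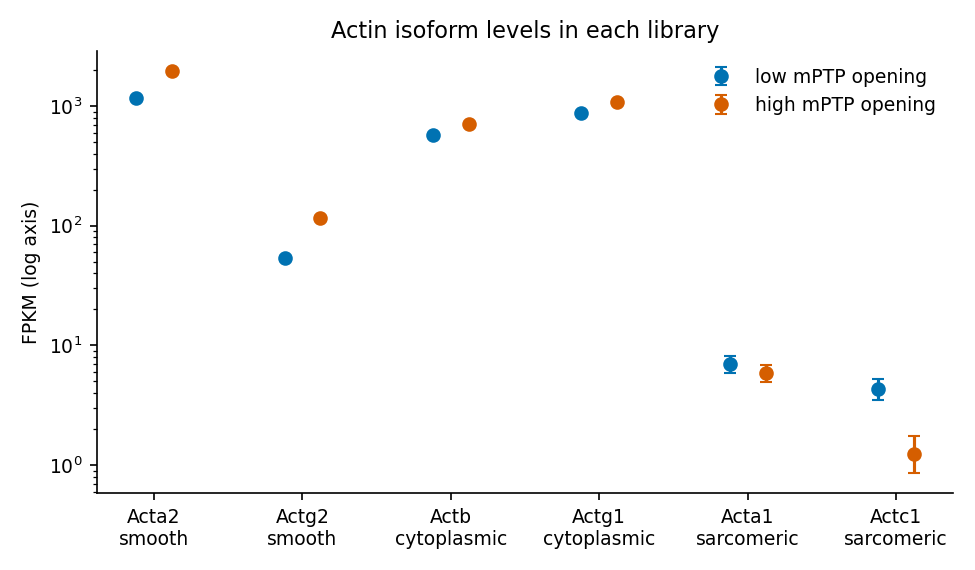
FPKM (log axis) of the 6 actins in the low (blue) and high (orange) mPTP opening library, with exact 95% Poisson intervals for counting error, which are smaller than most points. Acta2 and Actg2 are higher in the High mPTP library and Actc1 is lower.

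Acta2, or smooth muscle alpha actin, was measured at 1166 FPKM in the Low mPTP and 1953 FPKM in the High mPTP library (31280 and 56965 reads). The ratio was 1.67 (1.65 to 1.70). The gene (ENSMUSG00000035783, chromosome 19, 34241090 to 34255336, minus strand, 9 exons in the main mRNA) ranked at place 18 of all symbols by FPKM in the Low mPTP library and at place 8 in the High. Of the 397 genes whose mean reached 100 FPKM, Acta2 among them, none had a larger ratio.

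Actg2, the enteric smooth muscle actin, was at 53.3 FPKM in the Low mPTP and 117 FPKM in the High mPTP library (1250 and 2981 reads). Its ratio of 2.19 (2.05 to 2.34) was the largest of the 6, and it was the one actin higher by 2-fold, a size that 0.328% of measured genes reached. The gene (ENSMUSG00000059430) lies on chromosome 6, 83512905 to 83536265. It ranked at place 810 in the Low mPTP and at place 327 in the High mPTP library. Of 11871 measured genes with reads in both libraries, 56 had a larger ratio than Actg2 and 190 a larger one than Acta2.

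Actb, the cytoplasmic beta actin often used as a reference gene, was at 576 FPKM in the Low mPTP and 710 FPKM in the High mPTP library (23253 and 31146 reads). The gene (ENSMUSG00000029580) lies on chromosome 5, 142903115 to 142906754. Its ratio was 1.23 (1.21 to 1.25), so normalising to Actb would lower every other ratio by that factor. Actg1, the cytoplasmic gamma actin (ENSMUSG00000062825, chromosome 11, 120345690 to 120348542), was at 867 and 1085 FPKM, a ratio of 1.25 (1.23 to 1.27). The cytoplasmic pair thus lay close together. Their ratio to each other, Actb over Actg1, was 0.664 in the Low mPTP and 0.654 in the High mPTP library, a change of 0.985 (0.964 to 1.01) that was not detectable at this depth. Both genes were above the middle of all measured genes, whose median log2 ratio was -0.03, and 90.2% of these had a smaller ratio than Actb.

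Actc1, the cardiac actin, was at 4.31 FPKM in the Low mPTP and 1.25 FPKM in the High mPTP library (105 and 33 reads). Its level was thus 3.46-fold lower in the dim cells (2.32 to 5.28), and it was the 1 actin lower by 2-fold, which 0.958% of measured genes were. The gene (ENSMUSG00000068614) lies on chromosome 2, 114047282 to 114053548. Of measured genes, 0.337% had a smaller ratio. Acta1, the skeletal actin (ENSMUSG00000031972, chromosome 8, 123891769 to 123894751), was at 6.96 and 5.88 FPKM (161 and 148 reads). Its ratio of 0.845 had an interval from 0.672 to 1.06, so a difference of Acta1 was not detectable at this depth. The sarcomeric actins differed in this from each other. The level of Acta1 was 1.61 times that of Actc1 in the Low mPTP and 4.72 times in the High mPTP library, a change of 2.93 (1.83 to 4.74). Reads of more abundant actins that may have been placed on these genes were not set apart.

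**Figure D3:**
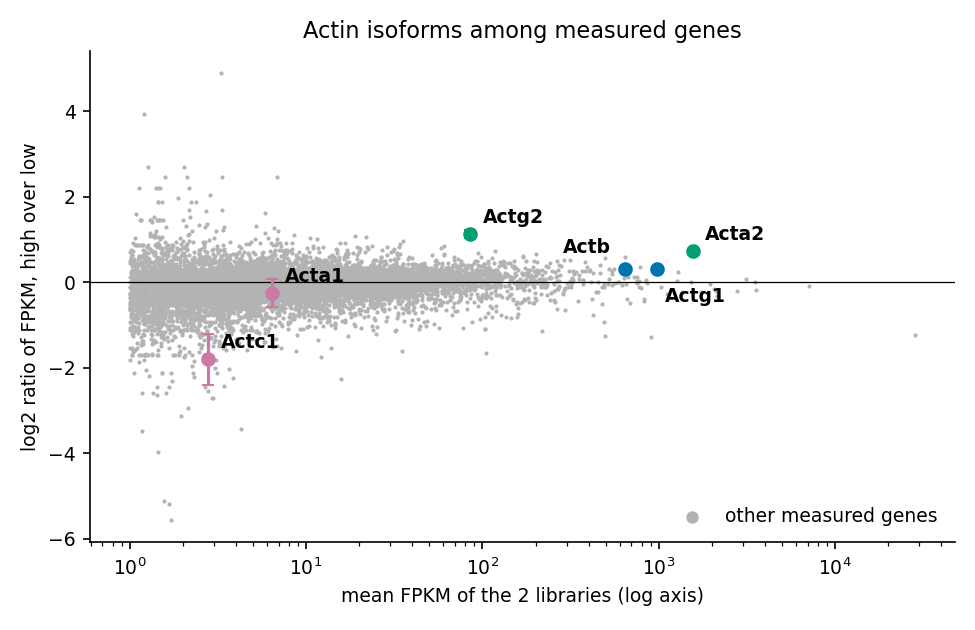
Log2 ratio of FPKM, High over Low mPTP, against the mean FPKM of both libraries (log axis) for measured genes with reads in both. Grey points are all other genes, and coloured points are the actins with 95% counting intervals. Actg2 and Acta2 lie above and Actc1 below most genes of like level.

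Ratios between isoforms within 1 library do not depend on how that library was scaled. Acta2 was 2.02 times Actb in the Low mPTP and 2.75 times Actb in the High mPTP library, a change of 1.36 (1.33 to 1.39). Actg2 over Actb went from 0.0925 to 0.165, a change of 1.78 (1.66 to 1.91). The smooth muscle actins also differed from each other, with Acta2 at 21.9 times Actg2 in the Low mPTP and 16.7 times in the High mPTP library. Of all 15 pairs, Actb and Actg1 were the 1 pair whose counting interval held a ratio of 1.

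The make-up of the actin pool shifted toward the smooth muscle isoforms. Acta2 was 43.6% of the summed actin FPKM in the Low mPTP and 50.4% in the High mPTP library, a difference of 6.84 percentage points (6.41 to 7.27). Actg2 was 1.99% and 3.02%, a difference of 1.03 points. In return Actg1 went from 32.4% to 28.0% and Actb from 21.6% to 18.3%, although both had higher FPKM. Together the cytoplasmic pair made up 54.0% of the pool in the Low mPTP and 46.4% in the High mPTP library. The smooth muscle pair went from 45.6% to 53.5%, so that by FPKM the smooth muscle pair was the larger part in the High mPTP library alone. The sarcomeric pair held 0.421% and 0.184%.

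The order of the levels was Acta2, Actg1, Actb, Actg2, Acta1, Actc1 in both libraries by deposited FPKM, and each neighbour differed beyond its counting interval. That order rests on the lengths used. For 5 of the genes the whole read counts were recovered with all annotated exon sequence as the length, which for Actb and Actg1 includes 759 and 706 nt outside the main mRNA. For Acta2 they were recovered with the main mRNA ended where the deposited gene ends, 1781 nt in place of the 2035 nt that M21 gives it. Per length of the main mRNA, with 1781 nt for Acta2, Actg1 at 1181 and Acta2 at 1166 did not differ beyond counting error in the Low mPTP library, with a ratio of 1.01 (0.998 to 1.03). In the High mPTP library Acta2 was then 1.32 times Actg1 (1.31 to 1.34). With 2035 nt Acta2 was at 1021 in the Low mPTP library, where Actg1 was 1.16 times as high (1.14 to 1.18). In the High mPTP library it was at 1709 and still above Actg1, by a ratio of 1.16 (1.14 to 1.17). The place of Acta2 or Actg1 as the highest actin of the Low mPTP library therefore depends on the length chosen, while Acta2 was the highest in the High mPTP library by all 3 lengths. Of the 50 nt windows of Actg1 56.7% also occur in other annotated genes, and how reads with several places were counted is not given. The order and the shares in both libraries rest on that as well. With 1781 nt the share of Acta2 was 36.2% and 42.8%, a difference of 6.63 points, and with 2035 nt it was 33.1% and 39.6%, a difference of 6.43 points. By either mRNA length the cytoplasmic pair was the larger part also in the High mPTP library, with Actg1 at 32.4% and Actb at 21.7% when Acta2 has 1781 nt. Ratios between libraries do not change with the length.

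**Figure D4:**
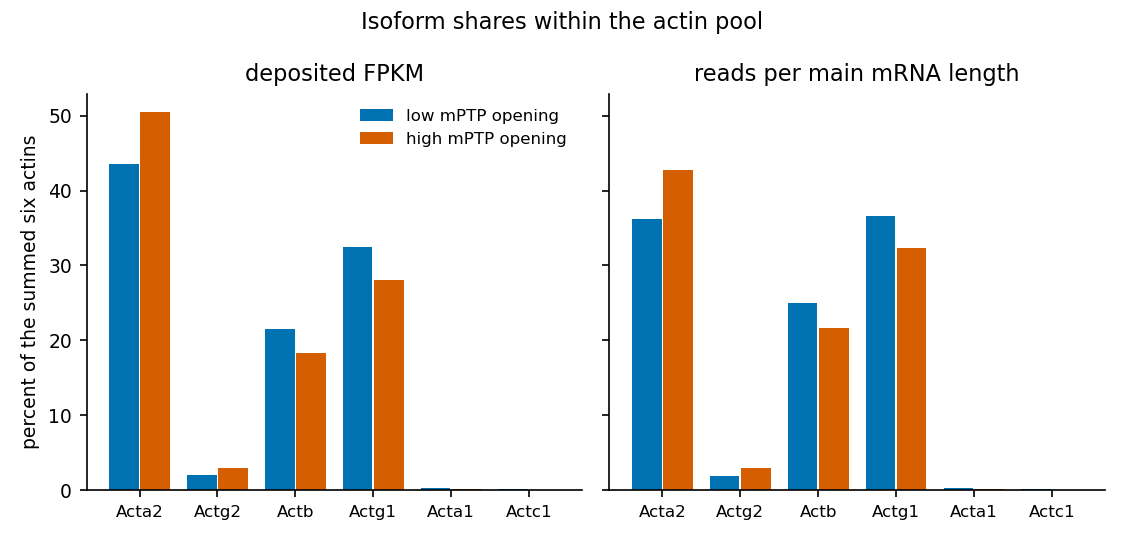
Share of each isoform in the summed 6 actins in the low (blue) and high (orange) mPTP opening library, by deposited FPKM (left) and by reads per length of the main mRNA, with 1781 nt for Acta2 (right). By both scales Acta2 and Actg2 take a larger share and Actb and Actg1 a smaller one in the High mPTP library.

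Genes that work with actin were read in 8 lists, with 103 measured genes in all. Of these 4 were 1.5-fold or more higher and 4 lower, which is 3.88% each beside 1.54% and 4.38% of all measured genes. Their median log2 difference was 0.11, beside -0.02 over all measured genes. Scaling each library to a common FPKM sum adds 0.12 to every log2 ratio. That is enough to turn the sign of the median over all measured genes and of lists whose median lies as near to 0. The shift depends largely on Gm23935, which made up 12.6% of the FPKM sum in the Low mPTP and 5.89% in the High mPTP library. Scaling by the median ratio or a trimmed mean adds 0.03.

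The partners of the smooth muscle isoforms had positive differences in 9 of 9 measured genes, beside 45.4% of all measured genes, and the median was 0.40. The intervals of the ratios of Mylk (0.9905 to 1.115) and Tagln (0.744 to 1.74) held 1, and those of the other measured partners lay above 1. Of the 9 genes 3 were higher by at least 1.5-fold. Myh11, the smooth muscle myosin heavy chain, was at 2.86 FPKM in the Low mPTP and 8.78 FPKM in the High mPTP library. Des, the muscle intermediate filament desmin, was at 5.45 and 11.7 FPKM, a ratio of 2.16 (1.88 to 2.47). Cnn1, a calponin that binds filaments, was at 14.5 and 25.5 FPKM. Myl9, the regulatory light chain, was at 163 and 231 FPKM, short of the size. Tagln, an actin cross-linker usually abundant beside Acta2, was at only 1.44 and 1.63 FPKM. Exons of other annotated genes cover 67.9% of its exon sequence, so this value is uncertain, while of the actins Actg1 alone overlaps other annotated exons, by 147 nt.

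The partners of the sarcomeric isoforms were mostly barely present, with 22 of 27 under a mean of 1 FPKM. Of the 5 measured genes 2 were lower by 1.5-fold or more and 0 higher. Mylpf, a fast skeletal light chain, was at 2.88 FPKM in the Low mPTP and 0.920 FPKM in the High mPTP library (46 and 16 reads). Tnnc1, the slow and cardiac troponin C, was at 3.44 and 1.47 FPKM. Actn3, a sarcomeric alpha actinin, was at 1.81 and 1.03 FPKM. Tnnt3, a fast skeletal troponin T, had 40 and 57 reads, and the interval of its ratio from 0.860 to 2.02 held 1. Below the filter Myh3, the embryonic myosin, had 124 and 36 reads. Of the 27 listed genes 24 had a lower FPKM in the High mPTP library, among them 4 of the 5 measured ones. Of all measured genes 45.4% had a higher one. That share does not cover the 22 genes under the filter, for which no such share is given here. Many of the 24 had few reads, and intervals such as those of Myh1, Tnni2 and Myod1 held 1. The list summed to 1843 and 1185 reads, a ratio of 0.591 (0.549 to 0.636) after division by library depth. Of these reads 934 and 735 were of Mef2c alone, whose ratio was 0.724 (0.656 to 0.798). The myogenic factor Myog had 18 and 8 reads.

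The regulators of actin transcription lay close together. Of 9 measured genes 0 passed 1.5-fold, with a median of 0.02. Srf, the serum response factor itself, was at 15.3 FPKM in the Low mPTP and 15.5 FPKM in the High mPTP library. Mkl1, its cofactor that actin monomers bind, was at 11.8 and 11.9 FPKM, and its ratio had an interval from 0.931 to 1.10. The ETS cofactor Elk4 was the furthest apart, at 6.86 and 5.04 FPKM, while Tead1 and Fhl2 had ratios of 1.19 and 1.17. Myocd, the smooth muscle cofactor, had 13 and 28 reads, and its interval from 0.993 to 4.17 held 1. Transcript levels say nothing of the place of these proteins in the cell.

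Of proteins that cap, cross-link or line the filament, 20 of 21 had positive differences, beside 45.4% of all measured genes. Their median was 0.35, but 0 were higher by 1.5-fold, beside 1.54% of measured genes. After scaling to a common sum 5 were, but that scaling raises every gene alike. The share of all measured genes past 1.5-fold under it is not given here. Tpm4, a tropomyosin, was at 258 FPKM in the Low mPTP and 370 FPKM in the High mPTP library, a ratio of 1.44 (1.40 to 1.48). Flna, the cross-linker filamin A, was at 238 and 340 FPKM, and Myh9, the non-muscle myosin heavy chain, at 77.5 and 109 FPKM. The exception was Lcp1, the plastin of leukocytes, at 18.9 and 11.9 FPKM, which was lower by 1.5-fold or more. No gene of this list was lower by that size after scaling to a common sum or with a pseudocount of 5 FPKM. Beside this leukocyte gene, 9 of 9 macrophage markers had lower values, 8 of them by 1.5-fold or more and none at 0, and their part in the result was not tested.

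Nucleators and elongation factors had a median of -0.04 over 23 genes. Diaph3, a formin, was at 6.90 FPKM in the Low mPTP and 14.2 FPKM in the High mPTP library, a ratio of 2.05 (1.86 to 2.27), and was the 1 gene higher by 1.5-fold. Was, the nucleation promoter of blood cells, was at 4.69 and 2.46 FPKM and was the 1 gene lower. The Arp2/3 subunit Arpc3 was at 40.3 and 34.7 FPKM. Monomer binding and turnover factors had 0 of 14 genes past the size and a median of 0.09. Dstn, a depolymerising factor, was at 199 and 260 FPKM, and Tmsb10 and Pfn1, which bind monomers, had ratios of 1.20 and 1.19. Actin folding factors had 0 of 16 past the size and a median of 0.15. Among them the chaperonin subunits Cct6a, Cct3 and Cct7 had ratios of 1.36, 1.29 and 1.21.

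**Figure D5:**
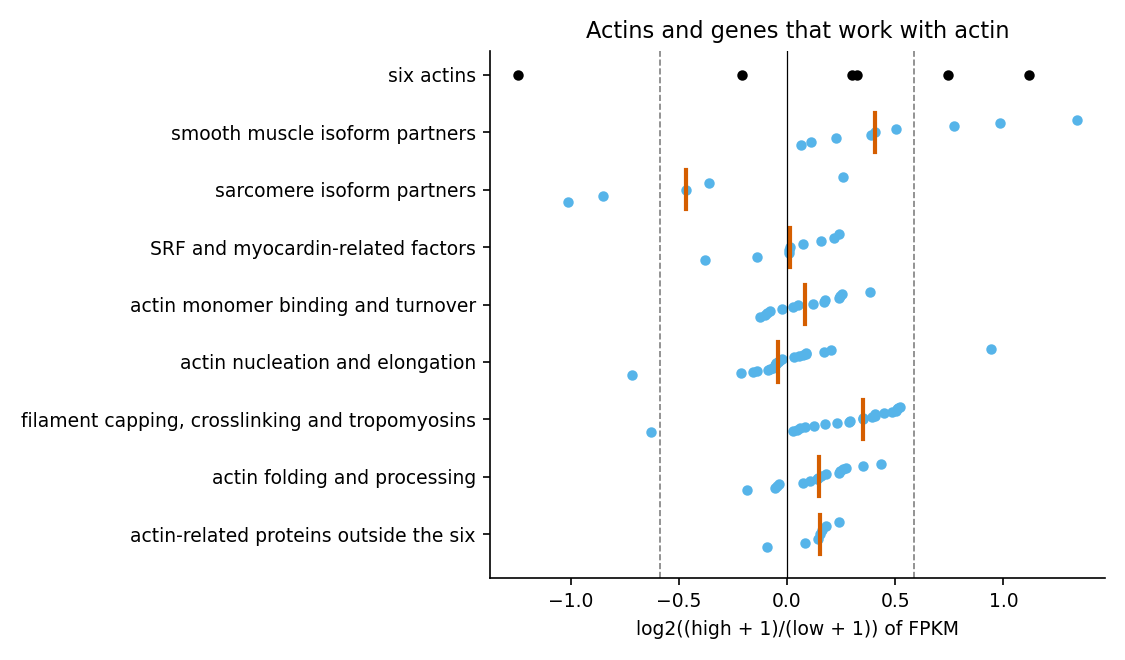
Differences on the log2(FPKM + 1) scale for the 6 actins (black) and for measured members of 8 lists (blue), with the median of each list as an orange bar. Dashed lines mark 1.5-fold. Smooth muscle partners all lie to the right, and 4 of 5 measured sarcomere partners to the left.

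Markers of cell types that use each isoform, or that the culture could hold, were read beside these results. All 6 smooth muscle markers had a higher value in the High mPTP library, with none at 0, and their sum was 41.7 FPKM in the Low mPTP and 64.4 FPKM in the High. Of the 6, 4 were measured. The counting interval lay above 1 for 4 and held 1 for 2, Synpo2 and Myocd. All 6 markers are also among the smooth muscle partners above, so this repeats that list, and 5 of 7 skeletal and 4 of 6 cardiac markers are likewise among the sarcomere partners. Pericyte markers, another source of smooth muscle actin, were mixed, with 2 of 6 higher. Their sum was 112 FPKM in the Low mPTP and 119 FPKM in the High, of which Pdgfrb alone was 85.2 and 97.4 FPKM. The counting interval lay below 1 for 3 of the 6 and above 1 for 2, and it held 1 for 1. Skeletal muscle markers summed to 5.88 and 3.81 FPKM, but 2 of 7 were measured, of which Mylpf was lower by 1.5-fold or more. The counting interval lay below 1 for 3 of the 7 and held 1 for 4. Cardiac markers summed to 1.69 and 0.574 FPKM with 0 of 6 measured, and Myh6 was at 0 in the High mPTP library. The interval lay below 1 for 2 of the 6, Tnnt2 and Myh7, and held 1 for 4. Fibroblast markers summed to 5660 and 5505 FPKM, mostly of Col1a1, Col1a2 and Col3a1. Of the 7, 5 were short of 1.5-fold and 2, Dcn and Lum, were lower by that size. The counting interval lay below 1 for 3 of the 7, Dcn, Lum and Col3a1, and above 1 for the other 4. Glial and mesothelial markers were lower, with sums of 12.04 against 1.41 FPKM and 41.5 against 17.6 FPKM. The part of any of these cells in the actin results was not tested.

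Other abundant genes whose ratio over the 2 libraries was nearest to an actin were sought among 377 named coding genes at 100 FPKM or more on average. Nearest to Acta2 were Hmgcs1, a cholesterol synthesis enzyme, with a ratio of 1.67, the matrix protein gene Tnc with 1.57 and the retinoid binding gene Crabp1 with 1.54. The same 3 genes were nearest to Actg2, at log2 distances of 0.39 to 0.51. Both actins had larger ratios than all 377 candidates, so the 3 candidates with the largest ratios had to be nearest to both. Nearest to Actb were Myl12a, a myosin light chain, Psma2, a proteasome subunit, and Tubb5, a beta tubulin, all within 0.0052 on the log2 scale. With 2 libraries this likeness is one ratio and no pattern.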

How the data were processed

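Total RNA of sorted mouse embryonic fibroblasts was taken with TRIzol and sequenced from TruSeq libraries, per the labels' protocols. The values are FPKM per gene in a single table as the authors deposited it. The submitters' processing notes list TopHat2 2.0.12, Bowtie2 2.2.3 and mm10. Not given in the sources used here are the counting tool, the annotation and the use of strand.

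FPKM times exon length in GENCODE M21 came out as whole reads within 0.05 for 93.2% and 93.5% of genes with up to 20 reads. All 6 actins were whole, Acta2 with its main mRNA ended at the deposited gene end, a length of 1781 nt. Reads of Myh11, Diaph3, Srf and other genes that did not come out whole were rounded, so their intervals are approximate. Ratios have exact Clopper-Pearson intervals. Ratios of ratios have exact conditional intervals, or normal ones on the log odds where each gene had at least 1000 reads, and sums and shares have delta-method intervals. PCR copies are not independent molecules. Differences are log2((high + 1)/(low + 1)), with 1.5-fold as the size. Rows of 1 symbol were added.

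Members, lists and rules were chosen with earlier results of these data known. Named genes were the actins, the 3 furthest members of each list and any past the size, the 3 genes nearest in ratio, markers, and other members picked after their values were seen, such as Srf, Mkl1, Myl9, Tagln, Tnnt3, Myh3, Myog and Myh9. Scripts were tested on simulated data. Tools were Biopython 1.88, SciPy 1.17.1, pandas 2.3.3, NumPy 2.4.6, matplotlib 3.10.9 and Python 3.11.15.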

Additional observations from a re-analysis of the deposited data

How the results depend on the processing

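All directions of the 6 ratios, of their sum and of the 6 shares stayed as given under the alternatives run. Scaling to the median ratio, a trimmed mean or a sum of 1000000 with and without mitochondrial genes moved ratios by up to 0.12 on the log2 scale. In that order the ratio was 1.71, 1.71, 1.83 and 1.82 for Acta2, 1.25, 1.26, 1.34 and 1.34 for Actb, 1.27, 1.28, 1.36 and 1.36 for Actg1, and 1.48, 1.48, 1.58 and 1.57 for the sum. Both scalings to a common sum gave 2.39 and 2.38 for Actg2. Gm23935 alone made up 12.6% of the FPKM sum in the Low mPTP and 5.89% in the High mPTP library. Both scalings to a sum depend largely on this gene. Without it the 6 actins held 0.966% and 1.42% of the sum in these libraries, beside 0.844% and 1.33% with it. The 4 muscle isoforms alone had a ratio of 1.69. Share differences in points without Actb were 6.19 for Acta2, -7.03 for Actg1 and -0.166 for Actc1. Without Acta2 they were -1.21 for Actb, -0.972 for Actg1, 2.56 for Actg2 and -0.221 for Actc1. By reads they were 0.775 for Actg2 and -0.0919 for Actc1. Main mRNA lengths, with 1781 or 2035 nt for Acta2, were alternatives chosen after seeing the data and left all 6 within their counting intervals. Actc1 had a log2 difference of -1.24, beside -1.71 at pseudocount 0.1 and -0.58 at pseudocount 5, the latter below the size. Of genes in the lists, 10 were higher by 1.5-fold after either scaling to a sum and 1 at 2-fold, beside 4. Lower genes numbered 0 with a pseudocount of 5, 1 at a mean of at least 5 FPKM, 7 with no filter and 1 at 2-fold, beside 4. No paired analysis was possible because each group had 1 library, and no library could be left out. Depth limits Acta1 and Actc1, at 161 reads or fewer.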

Other observations

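Beyond the 6 isoforms the deposited table gives the Pfam actin term to 18 other rows, of which 12 were measured. None of the 12 differed by 1.5-fold or more, beside 5.92% of all measured genes. Their log2 differences ran from -0.19 for Lrrc58, described below, to 0.24 for Actr6. Actr2 and Actr3, the actin-related subunits of the Arp2/3 complex, were at 64.2 and 61.6 FPKM and at 83.3 and 96.1 FPKM in the Low mPTP and High mPTP library. Actr1a, the filament of dynactin, was at 56.1 and 63.7 FPKM, Actl6a, a subunit of chromatin remodelling complexes, at 7.96 and 9.04 FPKM, and Actr6 at 4.68 and 5.70 FPKM. Of the listed actin-related proteins 7 were measured, 6 of them with a positive difference and 0 past 1.5-fold, with a median of 0.15. Lrrc58, whose transcripts hold the Actb-like stretch, was at 16.8 and 14.6 FPKM, the side opposite to Actb.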
